A study of Mus musculus with 6 samples.

Results

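Aminoacyl-tRNA synthetases are the enzymes that attach amino acids to their transfer RNAs, the step that fixes which amino acid a codon adds to a protein. The 36 mouse genes described here were taken by name: 20 encode the cytosolic enzymes and 16, with names ending in 2, encode mitochondrial enzymes. They are 36 of the 35082 genes for which liver counts were summed, and all 36 were among the 12497 genes abundant enough to be tested. They were listed by name rather than by a measured value, although earlier results of these data were known when the list was made.

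Synthetases in the cytosol charge tRNAs for the translation of nuclear messages, and several of them are held together with the scaffold proteins encoded by Aimp1, Aimp2 and Eef1e1 in the multisynthetase complex. Mitochondrial synthetases are encoded in the nucleus, made in the cytosol and imported to charge the tRNAs that read the mitochondrial genome, whose proteins belong to the respiratory chain and ATP synthase. Uncharged tRNA activates the kinase GCN2 (encoded by Eif2ak4), which raises translation of the transcription factor ATF4, and ATF4 in turn activates genes of amino acid supply, among them many cytosolic synthetase genes.

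RNA was taken from whole liver of male mice that were 8 weeks old when a high-fat diet began and ate it for 20 weeks. The control group is 3 mice of genotype G3BP1f/f, which carry floxed G3bp1 alleles and no Cre. The second group, labelled LKO, is 3 mice of genotype Alb-cre; G3BP1f/f, with the same floxed alleles and Cre recombinase driven by the albumin promoter, which acts in hepatocytes and leaves the other liver cells with their alleles. Because the controls carry no Cre, an effect of Cre itself and an effect of losing G3bp1 cannot be told apart. The comparison asks how the liver transcriptome differs when this RNA-binding protein of stress granules is deleted under a high-fat diet.

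Libraries held 20899135 to 21750007 estimated counts. Levels are given as CPM, the counts of a gene per 1e6 counts of the library, scaled by edgeR's TMM factors, which correct library totals for composition. G3bp1 itself measured 44.1, 34.8 and 40.5 CPM in control livers 1, 2 and 3 and 44.0, 30.0 and 31.5 CPM in LKO livers 1, 2 and 3, so its level did not set the groups apart (log2 difference -0.18, edgeR adjusted p = 0.909), and the groups are named by their labels. Which part of the gene Cre removes is not stated in the labels, so a sum over all of it does not check the deletion. Summed CPM of 10 hepatocyte markers ran from 97920 to 131400 in the controls and from 70520 to 116700 in the LKO livers. The 12 markers of Kupffer cells and macrophages had log2 differences below 0, with sums of 282.8 to 921.5 CPM in the controls and 290.4 to 410.3 CPM in the LKO livers. All 6 markers of lipid-associated macrophages (median -0.57) and all 5 tested markers of red blood cells (median -0.97) lay below 0 as well. The red blood cell sum was 1678, 727.3 and 1496 CPM in control livers 1, 2 and 3 and 1107, 444.9 and 438.5 CPM in LKO livers 1, 2 and 3. The part of these cells in the synthetase values was not tested. Of 6 pancreatic acinar markers, Cpa1, Prss2, Pnlip and Amy2a5 were at 0 counts in every library, and the list summed to 6.204 to 15.0 CPM, nearly all of it Cela1, with overlapping groups. LKO liver 1 was quantified with a fragment length of exactly 250 bases and another treatment of short transcripts, whereas the value implied by the other libraries ran from 242 to 262 bases. LKO livers 2 and 3 stood apart in other ways, with 36.3% and 37.8% of transcripts above 0 against 30.2% to 31.2% in the other libraries, and with 9.19% and 10.2% of counts on mitochondrially encoded genes against 7.22% to 7.64%. The part of these in the differences of those livers was not tested. In bulk tissue, fewer cells of a type and less RNA per cell cannot be told apart.

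No synthetase gene passed the test in either direction. By edgeR's quasi-likelihood test with Benjamini-Hochberg adjustment over all genes, 0 of the 36 were called higher and 0 lower, as were 0.0% of all genes tested in each direction, and the smallest adjusted p among the 36 was 0.845. At an unadjusted p under 0.05 edgeR counted 0 of the 36, against 2.65% of all genes higher and 1.9% lower. DESeq2 called 0.0481% of all genes higher and 0.0401% lower, limma voom called 0.0% in either direction, and both called 0 of the 36. For 4 of the 36 genes the groups were free of overlap, as they were for 9.34% of all genes tested. Of these 4, all cytosolic, Nars lay above the controls and Gars, Rars and Dars below, against 4.79% and 4.55% of all genes. These separations rest on the TMM factors, which were 0.90, 0.84 and 1.00 in control livers 1, 2 and 3. In LKO livers 1, 2 and 3 they were 1.08, 1.07 and 1.14, higher than in every control. In unscaled counts, from libraries of like totals, Gars, Rars and Dars overlapped. There Nars, Kars, Cars, Hars2 and Wars2 lay wholly above the controls. The share of all genes separated on that scale was not counted.

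For sums over all transcripts of a gene, scaled by TMM factors, intervals show how large a difference these libraries could hide. The 95% interval of the log2 difference included 0 for all 36 genes, and for 30 of the 36 it lay within 2-fold in either direction. The 6 wider ones belonged to Iars, Farsa, Farsb, Tars, Mars2 and Pars2. The intervals do not cover the choice of scaling or of transcripts. Library totals in place of TMM factors moved the median of all genes up by 0.26. With protein-coding transcripts alone, Lars2 and Qars, both among the 30, had log2 differences of 2.44 and 2.07. The summed level of the 20 cytosolic genes was 702.2, 701.4 and 659.9 CPM in control livers 1, 2 and 3 and 687.5, 634.3 and 660.3 CPM in LKO livers 1, 2 and 3, with means of 687.8 ± 24.2 and 660.7 ± 26.6 (SD over 3 livers). The summed level of the 16 mitochondrial genes was 180.2, 189.1 and 172.5 CPM in the controls and 168.3, 179.2 and 197.1 CPM in the LKO livers, with means of 180.6 ± 8.33 and 181.6 ± 14.5 (SD over 3 livers). In both classes the groups overlapped and the means differed by little more than the spread within a group or by less.

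**Figure D1:**
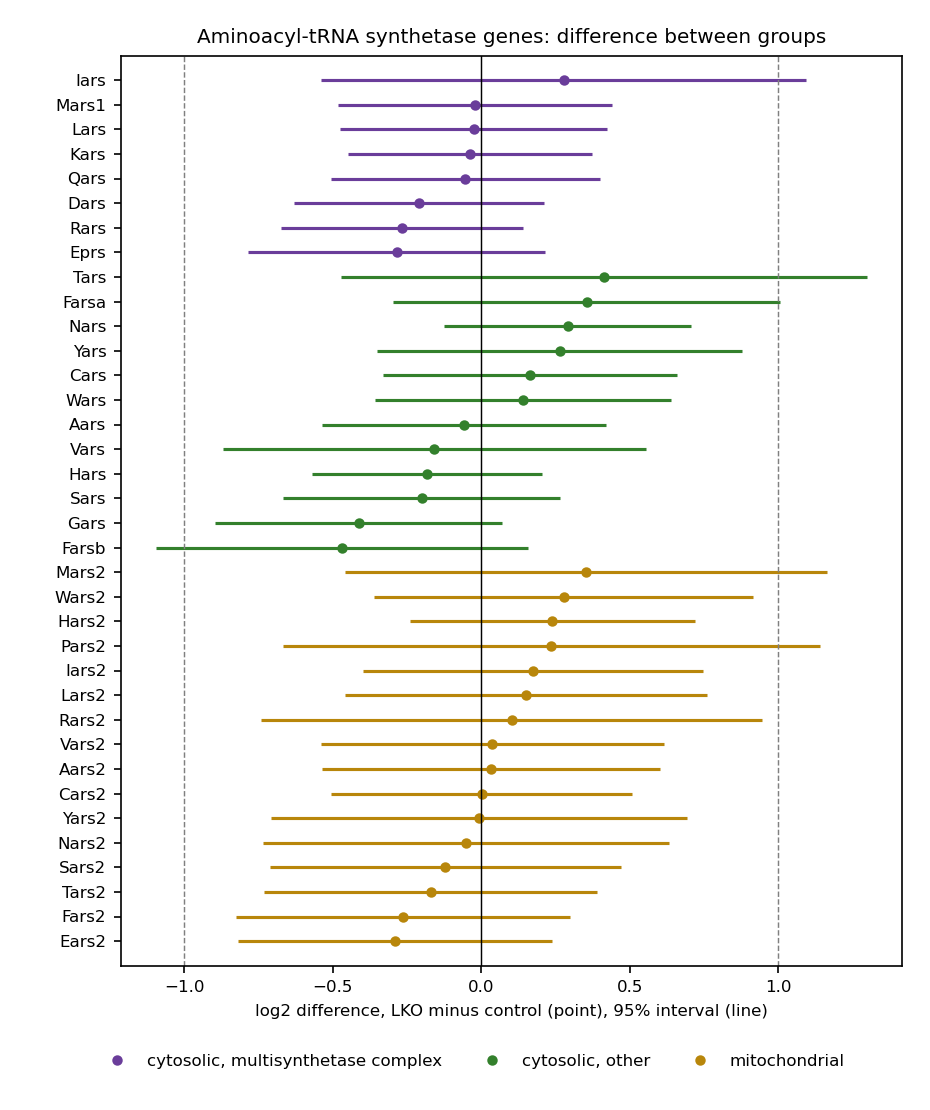
Log2 difference (knockout-labelled, LKO, minus control; horizontal axis) of each of the 36 genes, with points for the edgeR estimate and lines for its 95% interval; dashed lines mark 2-fold. Every line crosses 0, and points lie from -0.47 (Farsb) to 0.41 (Tars), while with TMM factors replaced by library totals the median of all genes and of both classes moves up by over 0.2.

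Among the 8 cytosolic synthetases of the multisynthetase complex, Eprs, Rars and Dars had the lowest differences. In this group 7 genes lay below 0 and 1 above, with a median log2 difference of -0.05, beside 51.6% above 0 and a median of 0.01 over all genes tested. With TMM factors replaced by library totals, where the median over all genes moved up by 0.26, Dars, Kars, Lars, Mars1 and Qars lay above 0 as well.

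Eprs (ENSMUSG00000026615; chr1:185363044-185428360, plus strand, GRCm38) encodes the bifunctional enzyme that charges both glutamate and proline. It measured 83.7, 75.2 and 64.2 CPM in control livers 1, 2 and 3 and 75.3, 54.2 and 53.8 CPM in LKO livers 1, 2 and 3. The groups overlapped, because LKO liver 1 lay above control liver 3 (log2 difference -0.28, SE 0.22, edgeR adjusted p = 0.855).

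Rars (ENSMUSG00000018848; chr11:35808381-35834506, minus strand), the arginyl-tRNA synthetase, measured 28.3, 26.8 and 30.8 CPM in the controls and 26.2, 21.1 and 24.2 CPM in LKO livers 1, 2 and 3. The groups did not overlap, with the lowest control 0.59 CPM above LKO liver 1 (log2 difference -0.27, SE 0.18, edgeR adjusted p = 0.848). Dars (ENSMUSG00000026356; chr1:128363707-128417368, minus strand), the aspartyl-tRNA synthetase, measured 61.0, 73.9 and 60.6 CPM in the controls and 59.7, 55.1 and 54.2 CPM in the LKO livers. Here too the groups only just separated (log2 difference -0.21, SE 0.18, edgeR adjusted p = 0.870). In the deposited TPM both differences lay above 0, at 0.11 for Rars and 0.15 for Dars, where the median of all genes lay 0.33 higher.

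Kars (ENSMUSG00000031948; chr8:111993443-112011323, minus strand) encodes lysyl-tRNA synthetase for the cytosol and, through alternative splicing, for mitochondria. Its levels were 29.3, 35.6 and 30.9 CPM in the controls and 33.7, 31.4 and 28.3 CPM in the LKO livers. The libraries of both groups were interleaved (log2 difference -0.04, SE 0.18, 95% interval -0.45 to 0.37, edgeR adjusted p = 0.975).

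Mars1, listed as Mars in the annotation used, overlaps the stress gene Ddit3, and reads from the stretch they share cannot be told apart. Mars1 (ENSMUSG00000040354, chr10:127296221-127311786, minus strand) encodes methionyl-tRNA synthetase. It measured 33.2, 25.3 and 27.1 CPM in the controls and 33.0, 24.7 and 26.6 CPM in the LKO livers, nearly the same set of values in both groups (log2 difference -0.02, SE 0.20, 95% interval -0.48 to 0.44, edgeR adjusted p = 0.988). Iars, the isoleucyl-tRNA synthetase gene (ENSMUSG00000037851; chr13:49682100-49734267, plus strand), was the member of the complex above 0. Its levels were 6.92, 13.8 and 12.0 CPM in the controls and 7.68, 17.1 and 14.8 CPM in the LKO livers. Replicate 1 of each group lay lowest by a wide margin, and the difference of 0.28 had an SE of 0.36 (edgeR adjusted p = 0.911). It was 0.03 without control liver 1 and 0.55 without LKO liver 1. Lars and Qars, for leucine and glutamine, had log2 differences of -0.03 and -0.05.

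All 3 scaffold genes of the complex also lay below 0, and none was called by edgeR. Aimp1, Aimp2 and Eef1e1 had log2 differences of -0.24, -0.19 and -0.23. Their summed level was 28.86, 40.69 and 37.92 CPM in control livers 1, 2 and 3 and 30.46, 31.16 and 29.97 CPM in LKO livers 1, 2 and 3. Control liver 1 lay below all 3 LKO livers, and the other controls above them.

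The other 12 cytosolic synthetases were divided, 6 above 0 and 6 below, with a median log2 difference of 0.04, and with TMM factors replaced by library totals Aars, Hars, Sars and Vars moved above 0. Gars and Farsb lay lowest, and Tars, Farsa and Nars highest.

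Gars (ENSMUSG00000029777; chr6:55038007-55079500, plus strand) encodes glycyl-tRNA synthetase for both cytosol and mitochondria. It measured 35.5, 37.1 and 39.0 CPM in control livers 1, 2 and 3 and 35.4, 23.1 and 25.3 CPM in LKO livers 1, 2 and 3. The groups did not overlap, although LKO liver 1 lay only 0.08 CPM below the lowest control, and the low values were those of LKO livers 2 and 3 (log2 difference -0.41, SE 0.21, 95% interval -0.90 to 0.07, edgeR adjusted p = 0.845). Without LKO liver 1 the difference was -0.62, and without LKO liver 2 it was -0.29.

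Phenylalanyl-tRNA synthetase of the cytosol is built from 2 kinds of subunit, alpha from Farsa and beta from Farsb. Farsb (ENSMUSG00000026245; chr1:78417975-78488897, minus strand) measured 16.02, 34.3 and 26.7 CPM in the controls and 17.4, 18.8 and 19.5 CPM in the LKO livers, where control liver 1 lay below all 3 of them (log2 difference -0.47, SE 0.27, edgeR adjusted p = 0.845). Without control liver 1 the difference was -0.72 and without control liver 2 it was -0.20. Farsa (ENSMUSG00000003808; chr8:84856989-84869257, plus strand) measured 9.10, 6.57 and 6.76 CPM in the controls and 6.30, 11.6 and 10.8 CPM in the LKO livers. For Farsa, LKO liver 1 was the lowest of all 6 libraries (log2 difference 0.36, SE 0.28, edgeR adjusted p = 0.857). Per kilobase of the longest coding transcript, the ratio of Farsa to Farsb was 0.63, 0.21 and 0.28 in the controls and 0.40, 0.69 and 0.62 in the LKO livers, so control liver 1 grouped with the higher values.

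By TMM-scaled CPM, Nars (ENSMUSG00000024587), the asparaginyl-tRNA synthetase gene, was the synthetase whose LKO livers all lay above the controls. It measured 39.4, 48.3 and 42.7 CPM in the controls and 49.97, 52.3 and 57.3 CPM in the LKO livers (log2 difference 0.29, SE 0.18, 95% interval -0.12 to 0.71, edgeR adjusted p = 0.845). With any single library left out, the Nars difference ran from 0.22 to 0.37.

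Tars, for threonine, had the highest difference of all 36, 0.41 with an SE of 0.39. That value rested on control liver 1, at 19.4 CPM where the other 5 libraries lay between 44.4 and 63.1 CPM, and it was 0.06 without this library. Aars, the alanyl-tRNA synthetase gene with the highest CPM of the 36, measured 153, 109 and 121 CPM in the controls and 123, 115 and 130 CPM in the LKO livers, and its difference was -0.06. Yars, Cars and Wars had log2 differences of 0.27, 0.16 and 0.14 (0.04 for Yars and -0.04 for Cars without LKO liver 1, and 0.05 for Wars without control liver 2), and Sars, Hars and Vars of -0.20, -0.18 and -0.16.

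Among the 16 mitochondrial synthetases no gene separated the groups in TMM-scaled CPM, and the differences ran from -0.29 (Ears2) to 0.35 (Mars2). In unscaled counts Hars2 had 187, 194 and 203 in the controls and 224, 313 and 291 in the LKO livers. Wars2 had 38, 43 and 63 against 66, 66 and 76, so both lay wholly above the controls on that scale. In this class 10 genes lay above 0 and 6 below, with a median log2 difference of 0.04, and with TMM factors replaced by library totals 14 lay above 0. Once the trend of each library over length and GC content was removed, 7 lay above 0.

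Ears2 (ENSMUSG00000030871; chr7:122037213-122067263, minus strand) encodes mitochondrial glutamyl-tRNA synthetase and overlaps Ubfd1. It measured 7.99, 7.61 and 6.86 CPM in control livers 1, 2 and 3 and 7.51, 5.31 and 5.53 CPM in LKO livers 1, 2 and 3. LKO liver 1 lay within the controls and the other 2 libraries below them (log2 difference -0.29, SE 0.23, edgeR adjusted p = 0.857).

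Fars2, for phenylalanine in mitochondria (ENSMUSG00000021420; chr13:36117412-36726280, plus strand; overlapping Lyrm4 and Nrn1), measured 28.2, 29.5 and 30.1 CPM in the controls and 33.7, 20.4 and 19.0 CPM in the LKO livers. LKO liver 1 was the highest of the 6 libraries and replicates 2 and 3 the lowest (log2 difference -0.26, SE 0.25, edgeR adjusted p = 0.877), and without LKO liver 1 the difference was -0.57.

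Hars2 (ENSMUSG00000019143), the mitochondrial histidyl-tRNA synthetase gene, measured 9.96, 10.6 and 9.67 CPM in the controls and 9.67, 13.9 and 12.2 CPM in the LKO livers (log2 difference 0.24, SE 0.21, edgeR adjusted p = 0.870). Its start overlaps that of Hars, which lies on the opposite strand. Iars2 (ENSMUSG00000026618; chr1:185284726-185329396, minus strand), for isoleucine, measured 36.9, 45.7 and 41.7 CPM in the controls and 31.8, 50.3 and 58.1 CPM in the LKO livers (log2 difference 0.17, SE 0.25, edgeR adjusted p = 0.921). For both genes LKO livers 2 and 3 lay above every control, and replicate 1 at the lowest control or below it.

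Wars2 (ENSMUSG00000004233; chr3:99141068-99239186, plus strand), for tryptophan, measured 2.02, 2.35 and 3.00 CPM in the controls and 2.85, 2.92 and 3.19 CPM in the LKO livers (log2 difference 0.28, SE 0.28, edgeR adjusted p = 0.889). Mars2 (ENSMUSG00000046994; chr1:55237177-55248470, plus strand), which charges methionine for mitochondrial initiation and elongation, was the least abundant per length, with counts of 24, 28 and 30 for the controls and of 28, 43 and 55 for the LKO livers. At 1.28, 1.53 and 1.43 CPM against 1.21, 1.90 and 2.31 CPM, the groups overlapped (log2 difference 0.35, SE 0.35, 95% interval -0.46 to 1.16, edgeR adjusted p = 0.889). For the remaining mitochondrial genes the groups overlapped as well. Pars2, whose 95% interval ran from -0.67 to 1.14, Lars2 and Rars2 had log2 differences of 0.24, 0.15 and 0.10, Tars2 and Sars2 of -0.17 and -0.12, and Nars2, Vars2, Aars2, Yars2 and Cars2 of -0.05, 0.04, 0.03, -0.01 and 0.00.

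Cytosolic synthetases were the more abundant class per length of transcript. Scaled to the longest coding transcript, the median level of the 20 cytosolic genes was 10.9 CPM per kilobase and that of the 16 mitochondrial genes 3.31, beside 3.10 over the 12254 protein-coding genes tested. Dars stood highest at 29.97 ± 3.46 CPM per kilobase in the controls and 25.90 ± 1.34 in the LKO livers, followed by Aars at 22.23 ± 3.97 and 21.35 ± 1.299 (SD, n = 3 each). Dars lay above Aars in all 6 libraries, most narrowly in control liver 1, at 28.1 against 26.7. Nars, Kars, Eprs and Gars came next, at 17.6, 14.4, 13.8 and 13.7 CPM per kilobase over the 6 libraries, and the ranges of Kars, Eprs and Gars overlapped. By the mean over the 6 libraries, Fars2 led the mitochondrial class at 12.6 and held rank 7 among the 36. In LKO liver 3, however, Iars2 lay above Fars2, at 10.6 against 8.96 CPM per kilobase. Iars, with a mean of 2.72, was the lowest cytosolic gene. At the low end Wars2, Pars2 and Mars2 measured 0.62, 0.56 and 0.14 CPM per kilobase.

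**Figure D2:**
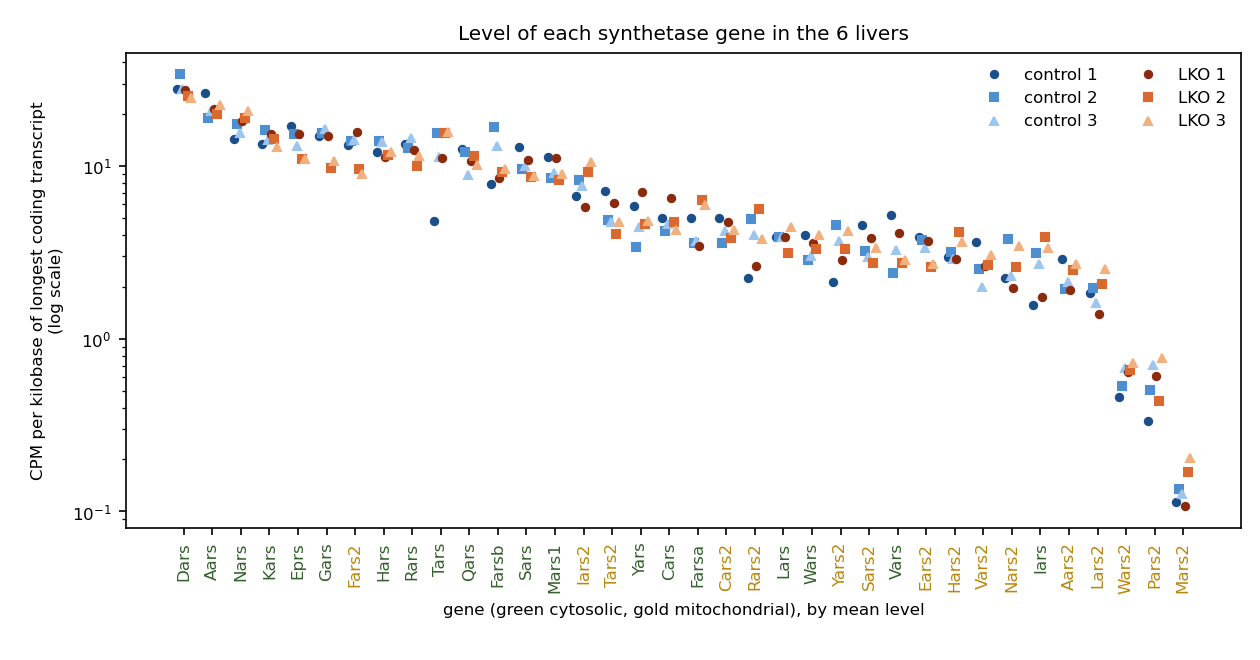
Level of each gene in each library, in CPM per kilobase of the longest coding transcript (log axis), ordered by mean, with blue points for control and red to orange for LKO libraries. Cytosolic genes (green names) fill the upper end, and Wars2, Pars2 and Mars2 lie apart at 0.62 to 0.14. By mean, Fars2 (12.6) is the highest mitochondrial gene (gold names).

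The order by deposited TPM differed, because it follows which transcript received the counts. In TPM Fars2 held rank 1 and Mars1 rank 2 of the 36, with means of 46.6 and 31.4. Many of their counts lay on short transcripts, such as Fars2-206 of 506 bases and, for Mars1, Mars-203 of 621 bases and Mars-204 of 467 bases. Scaled to the longest coding transcript Mars1 stood at rank 14, with 9.56 CPM per kilobase.

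Spread within a group was lower, in the median, for cytosolic than for mitochondrial synthetases. The median coefficient of variation was 15.7% in the controls and 14.3% in the LKO livers for the cytosolic genes, 20.9% and 20.7% for the mitochondrial genes, and 21.9% and 19.4% over all genes tested with a mean of at least 1 CPM. Tars in the controls varied most, at 51.3%, and Lars in the controls least, at 0.47%.

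Comparing the 2 compartments for the same amino acid, Hars and Hars2 were the single pair among 15 whose ratio separated the groups, a count reached after all pairs had been compared and read beside the 9.34% of single genes without overlap. Per kilobase, Hars exceeded Hars2 by 4.03, 4.37 and 4.77 times in control livers 1, 2 and 3 and by 3.92, 2.78 and 3.31 times in LKO livers 1, 2 and 3, with means of 4.39 ± 0.37 and 3.34 ± 0.57 (SD over 3 livers). The gap between the lowest control and LKO liver 1 was 0.11. The ratio of Eprs to Ears2 was the steadiest, from 3.90 to 4.37 over the 6 libraries. Iars was the clearest case of a cytosolic gene with less RNA per kilobase than its mitochondrial partner, with a ratio to Iars2 of 0.23 to 0.42. Mars1 exceeded Mars2 by 44.0 to 104.2 times per kilobase. That ratio rests partly on length, since the longest coding transcript has 2962 bases for Mars1 and 11294 for Mars2. Without scaling to length, mean CPM was 28.5 against 1.41 in the controls and 28.1 against 1.81 in the LKO livers.

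Differences between libraries of the same group were related to the GC content of the genes. Over the 36 genes, Spearman's rho between GC content and the deviation of a gene from its own mean over libraries was 0.65, -0.61 and -0.21 in control livers 1, 2 and 3 and 0.42, -0.31 and -0.13 in LKO livers 1, 2 and 3. Over all genes tested it was 0.36, -0.20 and -0.06 in the controls and 0.22, -0.13 and -0.17 in the LKO livers. These are descriptions across genes that share libraries, and genes are not independent replicates. Replicate 1 of both groups had the positive values. With transcript length, rho over all genes tested was -0.13, -0.24 and -0.27 in the controls and -0.15, 0.31 and 0.40 in the LKO livers, which set LKO livers 2 and 3 apart. Over the 36 genes it was 0.08, -0.11 and -0.25 in the controls and -0.19, 0.21 and 0.31 in the LKO livers. GC-rich members such as Vars (59.7% GC) and Sars2 (60.1% GC) were highest in control liver 1, and GC-poor ones such as Rars2 (44.1% GC) and Iars2 (44.6% GC) were low in both replicate 1 libraries. Once that trend, and the one over transcript length, was removed from each library, the log2 difference of Aars went from -0.06 to -0.28, that of Eprs from -0.28 to -0.46, that of Iars from 0.28 to 0.09 and that of Mars2 from 0.35 to 0.04.

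**Figure D3:**
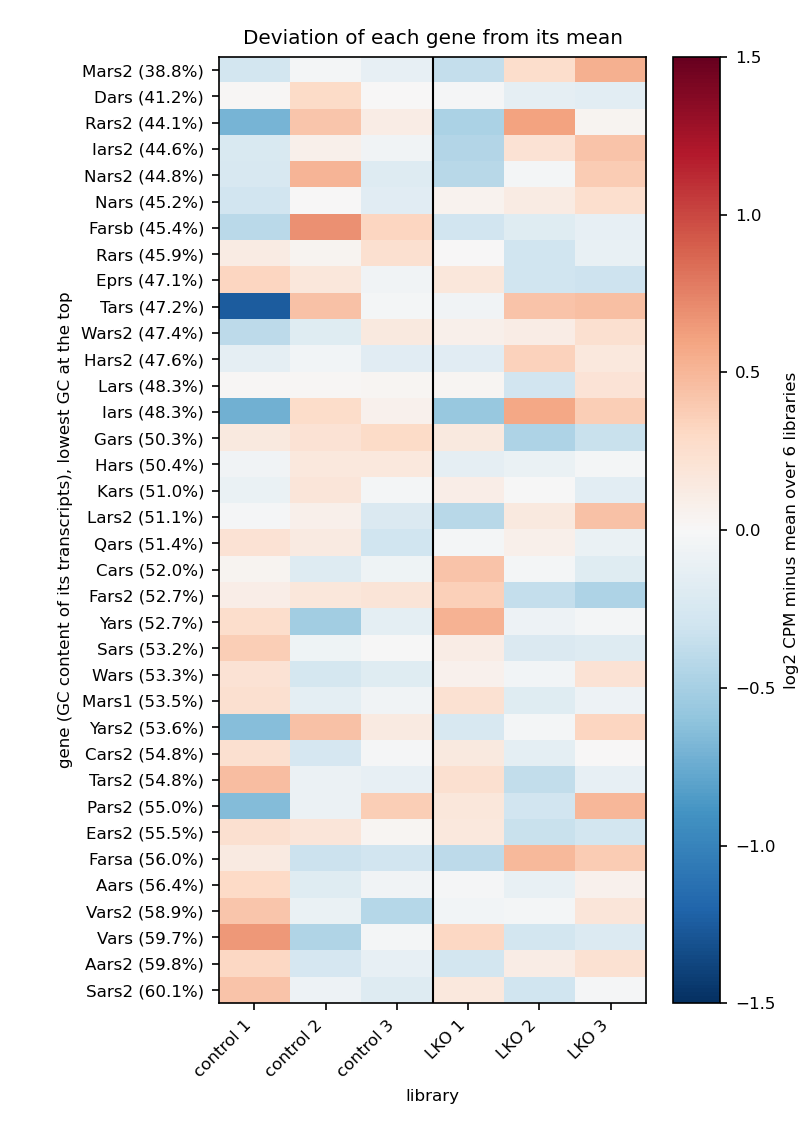
Deviation of each gene from its mean over the 6 libraries, in log2 CPM (colour), with genes ordered by GC content from lowest (top) to highest (bottom) and a line between control and LKO libraries. In control 1 the lower, GC-rich part is mostly red and the upper part mostly blue (rho 0.65 over the 36 genes), and control 2 shows the opposite (rho -0.61).

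The libraries also differed in which transcripts of a synthetase gene held its counts. Many of these genes have annotated transcripts without a complete reading frame, such as retained introns and targets of nonsense-mediated decay, beside the protein-coding ones. Protein-coding transcripts took 71.0%, 81.8% and 77.5% of the counts of the 36 genes in control livers 1, 2 and 3 and 71.1%, 87.1% and 88.4% in LKO livers 1, 2 and 3. Replicate 1 of both groups stood lowest and LKO livers 2 and 3 highest. Over all protein-coding genes tested the share was 92.5%, 96.2% and 94.6% in the controls and 92.2%, 95.2% and 95.3% in the LKO livers. The mitochondrial class varied most, at 46.0%, 76.5% and 64.4% against 51.5%, 84.2% and 87.3%.

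Single genes moved almost from end to end of the scale. For Lars2, the mitochondrial leucyl-tRNA synthetase gene, the protein-coding share was 0.0%, 32.4% and 11.9% in the controls and 0.8%, 96.7% and 98.8% in the LKO livers. The control libraries and LKO liver 1 had 94.9 to 135 counts on Lars2-209, a transcript annotated to nonsense-mediated decay, and LKO livers 2 and 3 had 0.0. Lars2-209 has 3756 bases and starts 27 bases behind the coding Lars2-201, of 3894 bases. Where reads fit both, the split of counts between them is an estimate. For Nars the protein-coding share was 6.5%, 29.5% and 34.1% in the controls and 9.8%, 74.4% and 90.5% in the LKO livers. For Farsa it was 0.0%, 94.0% and 65.0% in the controls and 0.0%, 60.5% and 73.2% in the LKO livers. For each of these genes LKO liver 1 lay beside control liver 1 and far from the other LKO livers. The share ranged over more than 20 points for 18 of the 36 genes and was above 95% in every library for 15, Gars, Dars and Rars among them. Among the 35 members with both kinds of transcript, the share in the LKO livers lay wholly above the controls for 0 and wholly below for 2, Eprs and Dars, beside 1.42% and 5.69% of the 9664 such genes tested. For 18 of the 35 (51.4%) both replicate 1 libraries lay below LKO livers 2 and 3, beside 25.3% of those genes. This order was chosen after the shares were seen. The genes beside them also differ in level of the share. Its median ran from 76.2% to 96.4% over the libraries for the 35 members. For protein-coding genes with both kinds of transcript it ran from 97.4% to 99.3%. The part of this in the 51.4% was not tested.

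**Figure D4:**
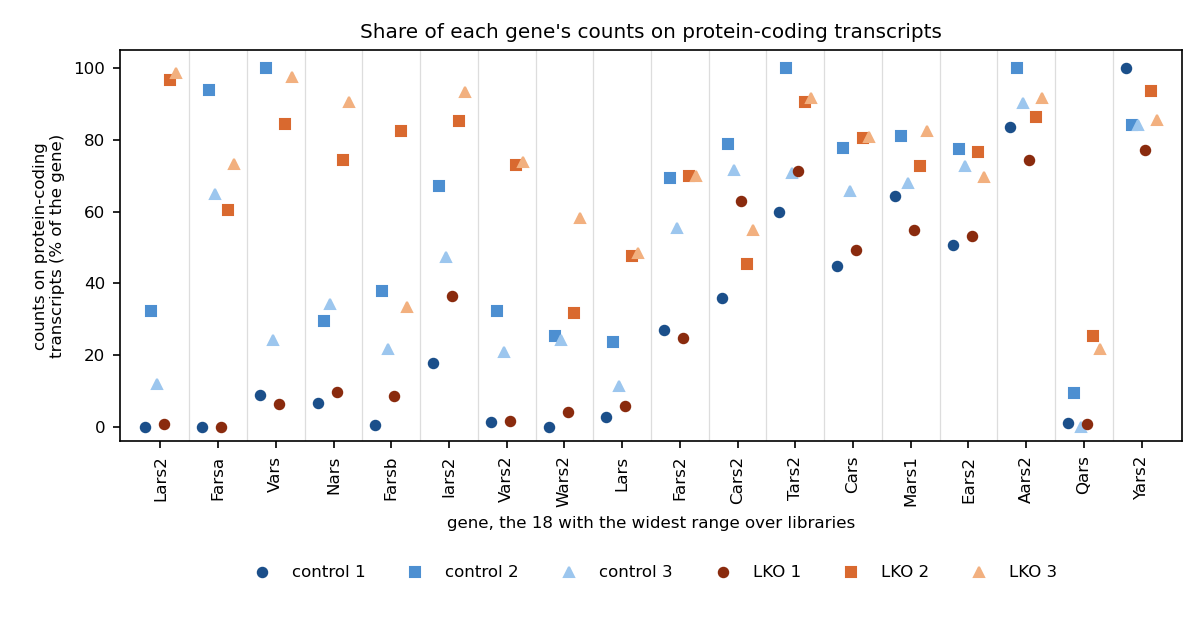
Share of a gene's estimated counts on its protein-coding transcripts, in percent of the gene, for the 18 genes whose share ranges over more than 20 points, with 1 point per library. LKO liver 1 lies beside control liver 1 for Lars2, Farsa, Nars and Vars2, and LKO livers 2 and 3 lie highest for Lars2, Nars, Iars2 and Vars2.

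Part of the counts of the 36 genes lay on transcripts that lack the start of the gene and run to its 3′ end. Some of these are annotated as protein-coding, and some still hold most of the full length. Transcripts that begin over 1000 bases of genome behind the start of the longest coding transcript and end within 1000 bases of its end exist for 16 of the 36 genes. They took 22.3%, 9.54% and 14.8% of the counts of the 36 genes among controls and 21.4%, 6.04% and 5.38% in the LKO livers. For Nars the share was 84.9%, 20.1% and 35.7% in the controls and 79.8%, 5.9% and 8.2% in the LKO livers. Fars2 went the other way, with 71.9%, 65.2% and 70.8% in the controls and 58.3%, 77.7% and 78.0% in the LKO livers. Coverage along transcripts is not part of the files, so the part of RNA quality in these shares was not tested.

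What a gene's difference was thus depended for some members on which transcripts were summed. With protein-coding transcripts alone, chosen after seeing the data, 0 of the 36 were called by edgeR, while the log2 differences were 2.44 for Lars2, 2.07 for Qars, 1.74 for Vars2, 1.62 for Nars and 1.40 for Lars, and that of Farsb went from -0.47 to 0.34. Gars and Rars stayed at -0.41 and -0.27 and Dars at -0.21. Without replicate 1 of both groups, also chosen after seeing the data, edgeR called 0 of the 36 and 0 genes in all, and 4 of the 36 had an unadjusted p under 0.05, against 22.2% of all genes in that fit. The 4 were Gars at -0.66, Farsb at -0.67, Farsa at 0.74 and Fars2 at -0.60, with edgeR adjusted p from 0.110 to 0.130.

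The amino acid response, through which cytosolic synthetase genes are known to be induced, showed no common direction. Of 28 genes of this response, most of them ATF4 targets, 23 were tested, of which 10 lay above 0 and 13 below, with a median log2 difference of -0.06, and 0 were called by edgeR. Atf5, a transcription factor induced by the response, measured 104.2, 95.2 and 91.2 CPM in the controls and 209, 213 and 128 CPM in the LKO livers (log2 difference 0.92, SE 0.25, edgeR adjusted p = 0.845), with no overlap. Cebpb and Eif4ebp1 had log2 differences of -0.64 and -0.35, and Atf4 itself of 0.03. The list's median deviation was 0.20, -0.24 and 0.17 in the controls and 0.25, -0.14 and -0.24 in the LKO livers. Replicate 1 of both groups and control liver 3 thus lay above 0, and the other libraries below. The gene of the sensor of uncharged tRNA and those of its partners GCN1, a co-activator, and IMPACT, an inhibitor, all lay above 0, and 0 of these 3 were called by edgeR. Eif2ak4, encoding the sensor GCN2, measured 2.45, 2.52 and 2.76 CPM in the controls and 2.93, 3.90 and 3.73 CPM in the LKO livers, with no overlap (log2 difference 0.45, SE 0.26, edgeR adjusted p = 0.845), and Impact and Gcn1 had log2 differences of 0.27 and 0.11.

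Promoters of the synthetase genes were searched for the letters TGATGNAA, the core of the element through which ATF4 and its C/EBP partners act, on both strands. RefSeq promoter windows (GRCm38.p6, from 250 bases before to 50 after a start site) matched 27 of the 36 genes by name. The letters occurred for 5 of 13 cytosolic genes and 0 of 14 mitochondrial genes, and for 9 of 25 genes of the amino acid response. Over all windows of that length they occurred for 4.51% of 27025 genes, in 3.97% of 32851 windows. A match is a run of letters and does not show that a factor binds there. The stretches with a match are printed 5′ to 3′ on the strand of the gene, because the genes that share them did not share a direction in the counts. Capitals mark the match, which reads TTNCATCA where it lies on the opposite strand.
Aars, chr8:111033704-111033763, plus strand: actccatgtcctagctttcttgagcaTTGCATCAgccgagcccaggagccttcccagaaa
Aars, chr8:111033825-111033871, plus strand: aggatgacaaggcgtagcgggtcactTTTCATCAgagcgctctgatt
Gars, chr6:55037945-55038004, plus strand: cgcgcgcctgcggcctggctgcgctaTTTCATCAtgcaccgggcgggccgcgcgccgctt
Iars, chr13:49682111-49682159, plus strand: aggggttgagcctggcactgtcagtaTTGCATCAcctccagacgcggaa
Tars, chr15:11399640-11399699, minus strand: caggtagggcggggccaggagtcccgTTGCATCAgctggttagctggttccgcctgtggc
Yars, chr4:129189880-129189932, plus strand: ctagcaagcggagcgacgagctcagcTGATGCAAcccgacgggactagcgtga
Iars, Tars and the upstream match of Aars carry TTGCATCA, the downstream match of Aars and that of Gars carry TTTCATCA, and Yars carries TGATGCAA, which is the reverse complement of TTGCATCA. The log2 differences of these 5 genes were 0.41 for Tars, 0.28 for Iars, 0.27 for Yars, -0.06 for Aars and -0.41 for Gars, and none was called by edgeR.

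Wars, for tryptophan, is known to be induced by interferon gamma. It measured 11.3, 8.05 and 8.57 CPM in the controls and 10.1, 9.43 and 11.3 CPM in the LKO livers, with overlapping groups. Of 15 interferon gamma response genes 13 lay above 0, with a median log2 difference of 0.47, and 0 were called by edgeR. Irf1, Irf9 and Gbp5 had log2 differences of 0.72, 0.67 and 0.63. The summed level of the list was 239.5, 258.7 and 343.0 CPM in the controls and 337.3, 225.2 and 572.4 CPM in the LKO livers, so LKO liver 3 stood highest and replicate 2 lowest of all 6. Wars was highest in control liver 1 and LKO liver 3, both at 11.3 CPM, and its relation to this list was not tested.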

How the data were processed

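Per the labels' protocols, liver RNA was enriched with oligo(dT) beads and sequenced in pairs. Per the file headers, the deposited files hold estimated counts and TPM per transcript in Salmon's layout. The submitters' processing notes name GRCm38, RSEM 1.2.8, Bowtie2 2.2.5 and DESeq without their roles; options and annotation: not given in the sources used here. Of 115221 transcripts, 113664 matched GENCODE M21 without their version and 1557 did not; the estimated counts were summed to 35082 genes and rounded. Reads from a stretch shared by overlapping or antisense genes cannot be told apart. After filterByExpr, 12497 genes were tested with edgeR 4.0.16 in R 4.3.3 (TMM, quasi-likelihood, two-sided, threshold 0.05). The members and gene lists were chosen with earlier results of these data known. Values in every library are given for the 6 smallest p per class, genes without overlap, extremes of TPM, Kars and Gars. Of each other list up to 3 genes were named, most of them by log2 difference alone. Others are examples chosen after their values were seen. Alternatives were DESeq2 1.42.0, limma 3.58.1, other scalings and filters, TPM with a pseudocount of 0.1, detrending, left-out libraries and a replicate block. On simulated counts of 12317 genes, edgeR called 14 of 100 genes changed by 1 log2 unit, 84 of 100 changed by 2, and 10 of 12117 unchanged. Counting error is relatively largest for Mars2, Pars2 and Wars2, with 19 to 76 counts per library.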

Additional observations from a re-analysis of the deposited data

How the results depend on the processing

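The count of synthetase genes called was 0 under every alternative run, including each left-out library. Over all genes, DESeq2 called 11 and edgeR 0 to 3 with 1 library left out, the 3 without LKO liver 1. The median log2 difference of the cytosolic genes was 0.22 with library totals for scaling, 0.30 in TPM and 0.18 with protein-coding transcripts alone, and ran from -0.083 to 0.039 with 1 library left out, the highest without control liver 1. That of the mitochondrial genes was 0.30 with library totals and 0.38 in TPM and ran from -0.047 to 0.22, the highest without control liver 2. Over all genes the median moved up by 0.26 with library totals and by 0.33 in TPM. Mars2, Pars2 and Wars2 are the genes under 100 counts per library, where counting error is largest.

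Single genes changed sign as follows. With library totals: Dars 0.058, Kars 0.23, Lars 0.24, Mars1 0.24, Qars 0.22, Aars 0.20, Hars 0.079, Sars 0.0595, Vars 0.096, Nars2 0.24, Sars2 0.15, Tars2 0.094 and Yars2 0.27. In TPM: Dars 0.15, Eprs 0.058, Kars 0.31, Lars 0.0597, Qars 0.12, Rars 0.11, Aars 0.32, Hars 0.17, Sars 0.46, Vars 0.58, Ears2 0.046, Iars2 -0.023, Nars2 0.39, Sars2 0.25, Tars2 0.16 and Yars2 0.32. With the length and GC trend removed: Qars 0.0096, Aars2 -0.10, Iars2 -0.0011, Lars2 -0.045, Vars2 -0.087 and Yars2 0.15. With protein-coding transcripts alone: Lars 1.40, Qars 2.07, Farsb 0.34, Vars 0.56, Aars2 -0.064 and Cars2 -0.10. Without replicate 1 of both groups: Qars 0.046, Aars 0.088 and Pars2 -0.0066. With upper quartile factors Lars was 0.0046, Mars1 0.0061 and Yars2 0.026. Cars2 was -0.0165 with DESeq2, -0.0164 with its size factors and -0.0031 without a filter, and Yars2 was 0.042 in limma voom. With 1 library left out, the ranges that crossed 0 were Kars -0.10 to 0.047, Lars -0.15 to 0.10, Mars1 -0.15 to 0.10, Qars -0.19 to 0.044, Aars -0.16 to 0.092, Cars -0.039 to 0.28, Vars -0.38 to 0.19, Aars2 -0.078 to 0.22, Cars2 -0.11 to 0.14, Iars2 -0.0115 to 0.39, Lars2 -0.059 to 0.35, Nars2 -0.28 to 0.24, Rars2 -0.22 to 0.36, Sars2 -0.24 to 0.091, Tars2 -0.35 to 0.046, Vars2 -0.13 to 0.30 and Yars2 -0.26 to 0.24. Of the 36 differences 33 changed sign or moved by over 1.5 times on the log2 scale with some library left out, the exceptions being Hars, Nars and Rars. Those that kept their sign ran from -0.26 to -0.11 (Dars), -0.47 to -0.19 (Eprs), 0.034 to 0.55 (Iars), 0.20 to 0.58 (Farsa), -0.72 to -0.20 (Farsb), -0.62 to -0.29 (Gars), -0.32 to -0.055 (Sars), 0.064 to 0.81 (Tars), 0.047 to 0.30 (Wars), 0.042 to 0.49 (Yars), -0.47 to -0.20 (Ears2), -0.57 to -0.11 (Fars2), 0.12 to 0.37 (Hars2), 0.14 to 0.57 (Mars2), 0.00084 to 0.54 (Pars2) and 0.15 to 0.45 (Wars2). The cause was not tested for any of these changes.

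With the replicate number as a block, edgeR called 0 genes, the medians were -0.04 for the cytosolic and 0.06 for the mitochondrial genes, and Yars2 turned to 0.039. Same-numbered libraries share only a number: their deviations correlated at 0.20, 0.28 and -0.15, and not every library correlated best with its own number.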

Other observations

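Genes that prepare tRNAs or use charged tRNAs were not called by edgeR either. Of 12 genes for related charging and proofreading, 4 lay above 0 and 8 below, with a median log2 difference of -0.15, and 0 were called. Aarsd1, which encodes an editing protein that removes amino acids from wrongly charged alanine tRNA, measured 24.7, 16.97 and 14.96 CPM in control livers 1, 2 and 3 and 14.3, 13.6 and 11.2 CPM in LKO livers 1, 2 and 3, with no overlap (log2 difference -0.53, SE 0.24, edgeR adjusted p = 0.845). Mtfmt, which formylates the initiator methionine of mitochondria, measured 5.70, 5.75 and 5.38 CPM in the controls and 6.39, 7.35 and 7.29 CPM in the LKO livers, also with no overlap (log2 difference 0.32, SE 0.21, edgeR adjusted p = 0.845). Sepsecs, which completes selenocysteine on its tRNA, had a log2 difference of 0.32. Of 21 tested genes of tRNA processing and modification 13 lay above 0, with a median of 0.04. Hsd17b10, a subunit of mitochondrial RNase P, Xpot, the tRNA exporter, and Trmt61a had log2 differences of -0.38, 0.20 and -0.34.

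Elongation factors, which carry charged tRNA to the ribosome or move it along, were also uncalled. Of 5 cytosolic factors 4 lay below 0, with Eef1d at -0.50, Eef1g at -0.35 and Eef1b2 at -0.34, all subunits of the exchange factor that recharges eEF1A with GTP. Eef1d measured 119, 111 and 113 CPM in the controls and 117, 72.1 and 53.7 CPM in the LKO livers, where replicate 1 lay among the controls. Of the 4 mitochondrial factors Tsfm and Tufm had log2 differences of -0.43 and -0.21, and Gfm1 and Gfm2 of 0.27 and 0.22.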
